A study of Homo sapiens with 2 samples.

Results

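ADAM9 and 9 other ADAM metalloproteases were followed in GFP-SAS cells, a human tongue squamous cell carcinoma line that carries green fluorescent protein, after inhibition of the microRNA miR-361-3p. The members were ADAM8, ADAM9, ADAM10, ADAM12, ADAM15, ADAM17, ADAM19, ADAM22, ADAM23 and ADAM28. All probe sets annotated to 1 of these symbols alone were taken, which gave 40 of the 49386 probe sets on the array and 10 of the 18239 genes. ADAM9 was chosen because its difference on these same 2 arrays was among the largest, so that difference is a description and carries no test.

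In the treated group, GFP-SAS cells received an antisense oligonucleotide of locked and ordinary DNA nucleotides (LNA/DNA) directed against miR-361-3p. In the control group, cells of the same line received a non-target oligonucleotide of the same chemistry. Dose and time were equal in both groups, at 25 nM and 24 h. Each group was measured on 1 Affymetrix 3' expression array, so the material is 1 cell line with no replicate, and the differences below have no replicate check and no p-value.

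ADAM proteins are membrane-anchored enzymes with a prodomain, a metalloprotease domain and a disintegrin domain. Many of them are sheddases, which cut the outer part of growth factor precursors, cytokines, receptors and adhesion molecules from the cell surface. In squamous epithelium this shedding feeds EGF receptor signalling and loosens cell contacts. ADAM22 and ADAM23 lack the zinc-binding motif of the catalytic site and act as binding proteins instead.

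The microRNA that the treatment was directed against is shown because it is the shared target behind every comparison below. Its mature sequence, from RefSeq, lies on the minus strand of GRCh38.p14 at chrX:85903641-85903663, and capitals mark the seed, bases 2 to 8.
hsa-miR-361-3p: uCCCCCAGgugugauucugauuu
The sequence of the oligonucleotide itself is not given in the sources used here.

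Values are log2 RMA values, and differences are the anti-miR array minus the control array. Probe sets below the array's median on both arrays were set aside as dim (medians of 4.64 for anti-miR and 4.63 for control), and the others were retained. A probe set could thus be retained through 1 array alone, where it read higher, so the filter favours such differences. A gene's value is the mean over its retained probe sets, and a gene was called higher or lower at 1.5-fold, a log2 difference of 0.585. The SD given with a difference is the spread over the probe sets of a gene, which can share probes, and holds no variation between cultures. The 23 nonspecific control probe sets, which match no transcript, reached 7.16 on the anti-miR array, against 6.87 on the control array. Their medians were far lower, 2.62 (anti-miR) and 2.52 (control). The highest values even exceeded the 75th percentile of each array, 6.53 (anti-miR) and 6.62 (control). Background and nonspecific range below refer to these highest values, a strict mark that a reading can miss without being at the typical control level. The median gene differed by 0.13. GAPDH differed by -0.0047 (1 probe set) and ACTB by -0.13 ± 0.01 (SD over 3 probe sets). Of 10 epithelial markers 7 had a probe set of their own and 6 were measured, all within 1.5-fold, with EPCAM at 11.14 on the anti-miR array, against 11.28 on the control array. KRT14 was dim on both arrays, DSG3 lay within the nonspecific range, and KRT6A, KRT17 and TP63 had no probe set annotated to them alone. All 6 fibroblast markers lay below the median on both arrays. Of the 7 leukocyte, 5 endothelial and 5 muscle markers, 2, 2 and 3 had a retained probe set.

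ADAM9, ADAM10 and ADAM17 were lower on the anti-miR array, and no member was higher by 1.5-fold. Of the 10 members, 8 had a retained probe set, and 3 of these 8 were lower by at least 1.5-fold, where 14.2% of all 11272 measured genes were. None of the 8 was higher by 1.5-fold, against 8.23% of all genes. At 2-fold, 1 of the 8 was lower, ADAM9, and 0 were higher, where 6.98% and 1.23% of all genes were. Since ADAM9 was chosen from this contrast, nothing is read from these shares. The median difference of the 8 members was -0.15, beside 0.13 over all genes, and -0.13 without ADAM9. By probe set, 8 of the 40 were lower by at least 1.5-fold and 0 were higher, beside 9.87% and 5.04% of the 45253 probe sets with 1 gene. With every probe set averaged, dim ones included, 2 of the 10 members were lower and 0 higher, beside 7.37% and 4.4% of 18239 genes.

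**Figure D1:**
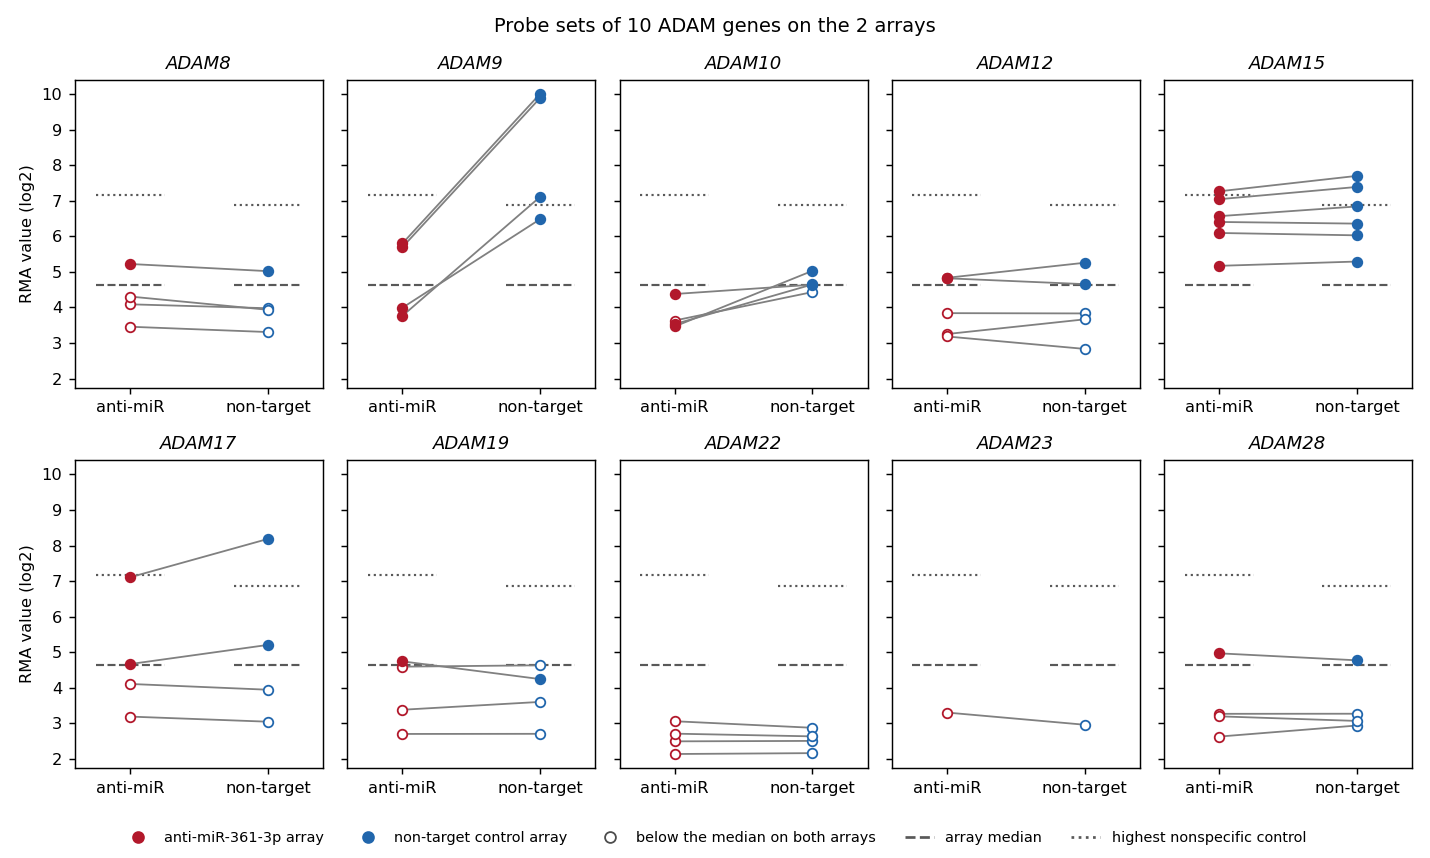
Log2 RMA values of the 40 probe sets of 10 ADAM genes, with the anti-miR array and the non-target control array in each panel and a line joining the values of 1 probe set. All 4 lines of ADAM9 are steep, 3 of the 4 of ADAM10 and the brightest of ADAM17 fall by more than 1.5-fold, and the remaining probe sets stay within 1.5-fold. Dashed segments mark the array medians, dotted segments the highest nonspecific control probe set.

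ADAM9 is a widely expressed ADAM that can cleave EGF-like ligand precursors and that binds integrins through its disintegrin domain. Its brightest probe set, 11755796_a_at, read 5.80 on the anti-miR array, against 10.01 on the control array. The probe set 11755797_x_at read 5.70 on the anti-miR array, against 9.90 on the control array. These readings are nearly the same, and the probe sets may share probes, which was not tested.

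The probe set 11747540_a_at read 3.76 on the anti-miR array, against 7.11 on the control array. The dimmest, 11741960_a_at, read 3.99 on the anti-miR array, against 6.49 on the control array. Every ADAM9 probe set on the anti-miR array was thus below every ADAM9 probe set on the control array. Both 11747540_a_at and 11741960_a_at were retained through the control array alone.

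The ADAM9 differences were -4.21, -4.20, -3.35 and -2.49, ranks 3, 4, 17 and 132 by decrease among 45253 probe sets. The gene value differed by -3.56 ± 0.82 (SD over 4 probe sets), 11.8-fold lower, or -3.69 relative to the median gene. It ranked 2 of 11272 genes by decrease, between NHS (-3.96, 1 probe set) and MOB1B (-3.35, 1 probe set). On the control array 3 of the 4 probe sets lay above the highest nonspecific control, and on the anti-miR array 0 did. The low readings are therefore not shown to be above background, and the fold is not an exact size. The SD of 0.82 was large for a gene on these arrays, where the pooled SD over the 6263 genes that kept 2 or more probe sets was 0.29. In 7 of these 6263 genes, ADAM9 included, every retained probe set was at least as low as the weakest one of ADAM9.

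ADAM10 releases E-cadherin, cuts Notch receptors at the cell surface and is the main alpha-secretase of the amyloid precursor protein. All 4 of its probe sets were lower on the anti-miR array, by amounts that differed widely. The probe set 11736026_at read 3.47 on the anti-miR array, against 5.03 on the control array. The probe set 11736028_x_at read 3.53 on the anti-miR array, against 4.65 on the control array. The probe set 11751180_a_at read 4.38 on the anti-miR array, against 4.64 on the control array, so this one nearly overlapped.

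The gene value of ADAM10 differed by -0.98 ± 0.66 (SD over 3 probe sets), 1.97-fold lower. The 3 probe sets were retained through the control array, where they exceeded the median by 0.40, 0.016 and 0.0096. The fourth, 11736027_a_at, read 3.63 on the anti-miR array, against 4.43 on the control array, and missed the filter by 0.20. All ADAM10 values lay within the range of the nonspecific controls on both arrays, so its level is not shown to be above background on either and the fold is not an exact size. The call was lost when the probe set of highest level stood for the gene (-0.26).

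ADAM17 releases tumour necrosis factor and most EGF receptor ligands. Both of its retained probe sets, a bright one and a less bright one, were lower, and its dim ones were not. The probe set 11731110_at read 7.11 on the anti-miR array, against 8.19 on the control array, a difference of -1.08 or 2.11-fold lower. It was the single ADAM17 probe set above the nonspecific range on the control array, and it lay just inside that range on the anti-miR array.

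The probe set 11731109_a_at of ADAM17 read 4.67 on the anti-miR array, against 5.20 on the control array. The remaining pair, below both array medians, differed by 0.16 and 0.14 in the other direction. The gene value of ADAM17 over its 2 retained probe sets differed by -0.81 ± 0.38 (SD), 1.75-fold lower. With all 4 probe sets averaged it differed by -0.33, short of the threshold.

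**Figure D2:**
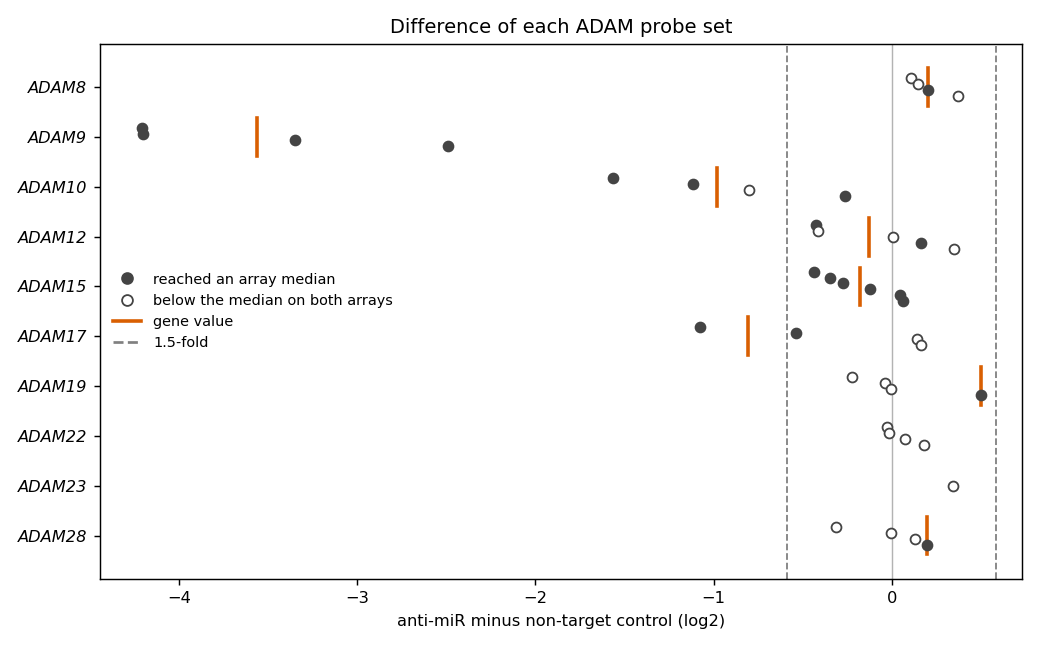
Difference of each of the 40 ADAM probe sets, anti-miR minus non-target control on the log2 scale, with the gene value as a vertical bar. The ADAM9 probe sets lie between -4.21 and -2.49, and 28 probe sets of 7 other members lie between -0.43 and 0.50, inside the dashed 1.5-fold lines.

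The remaining members stayed within 1.5-fold at every probe set. Their 28 probe sets differed by -0.43 to 0.50, with 13 lower and 15 higher on the anti-miR array. ADAM15, whose human disintegrin domain carries an integrin-binding RGD motif, was the member with all 6 probe sets retained. Its probe sets read 5.17 to 7.27 on the anti-miR array, against 5.29 to 7.70 on the control array. These ranges overlapped almost fully, and the gene differed by -0.18 ± 0.21 (SD over 6 probe sets). Its brightest probe set, 11755474_a_at, was above the nonspecific range on both arrays and differed by -0.43.

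ADAM8, best known from leukocytes, differed by 0.20 at its 1 retained probe set (5.22 on the anti-miR array, 5.02 on the control array). Its 4 probe sets were all slightly higher on the anti-miR array, by 0.11 to 0.37, beside 0.13 for the median gene. ADAM12, a meltrin studied in muscle and in tumours, differed by -0.13 ± 0.42 (SD over 2 probe sets). The 2 retained probe sets went in opposite directions, -0.42 and 0.17, and so did the 3 dim ones, which spanned -0.41 to 0.35.

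ADAM19, a meltrin that processes neuregulins, had 1 retained probe set, 11759381_at, which read 4.74 on the anti-miR array, against 4.24 on the control array. This difference of 0.50 was the highest among the 40 probe sets, and it fell short of 1.5-fold. The probe set was retained through the anti-miR array alone. The 3 dim probe sets of ADAM19 differed by -0.22 to -0.0035, and with all 4 averaged the gene differed by 0.06. ADAM28, known from lymphocytes, differed by 0.20 at its 1 retained probe set (4.97 on the anti-miR array, 4.77 on the control array), and by 0.0030 with all 4 averaged.

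ADAM22 and ADAM23, the members without a catalytic zinc site and known mainly as partners of LGI1 in neurons, had no retained probe set. The 4 probe sets of ADAM22 read 2.13 to 3.06 on the anti-miR array, against 2.16 to 2.87 on the control array. The 1 probe set of ADAM23 read 3.30 on the anti-miR array, against 2.96 on the control array. Both genes were dim on both arrays, so no change in them could be measured.

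Signal over background limits most of these statements. Of the 40 probe sets, 1 exceeded the highest nonspecific control on the anti-miR array, and 6 did on the control array. These 6 belonged to ADAM9 (3), ADAM15 (2) and ADAM17 (1). Poly-A control transcripts, spiked into the RNA, read 0.32 ± 0.19 above the control array on the anti-miR array (SD over 12 probe sets), a size above the differences of ADAM8 and ADAM28. Their part in those differences was not tested.

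**Figure D3:**
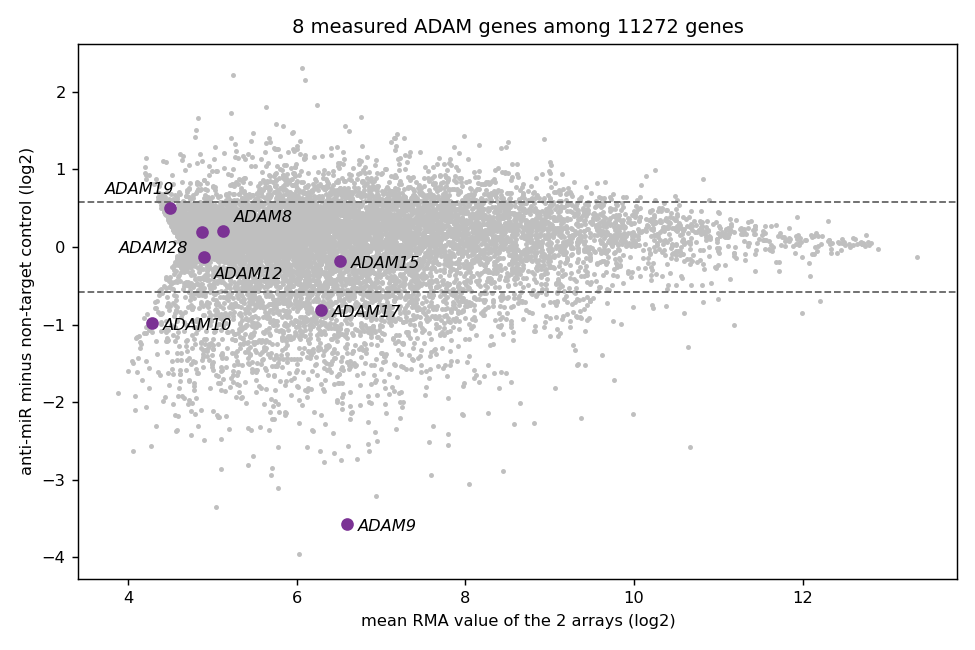
Difference (anti-miR minus non-target control, log2) against the mean RMA value of the 2 arrays for 11272 genes in grey and the 8 measured ADAM genes in purple, with dashed lines at 1.5-fold. ADAM9, at -3.56, lies near the lower edge of all genes, while ADAM10 (-0.98) and ADAM17 (-0.81) lie among many genes with like differences.

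ADAM10 and ADAM17 stood at ranks 813 and 1111 by decrease among 11272 genes, so their differences were common ones on these arrays, unlike the rank of ADAM9. Among genes that kept 2 or more probe sets, those whose pair of values lay nearest to that of ADAM9 were PPP1CB, SLC4A7, USP34, ATRX and ALCAM, by Euclidean distance over the 2 arrays. PPP1CB read 5.34 on the anti-miR array, against 8.55 on the control array, at a distance of 0.55. ALCAM, the farthest of the 5 at 0.75, read 5.54 on the anti-miR array, against 8.17 on the control array. The 5 genes were 6.21-fold to 9.25-fold lower. In 4 of them, all but ALCAM, no retained probe set exceeded the highest nonspecific control on the anti-miR array, so these folds are not exact sizes. The folds leave out dim probe sets with smaller differences, at -0.71 and 0.14 in PPP1CB and at -0.98, -0.57 and -0.47 in ATRX. A likeness over 2 values holds little more than the control level and the size of the difference.

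The nearest protein-coding gene with a probe set of its own was taken on each side of ADAM9, ADAM10 and ADAM17 on the chromosome. Genes without such a probe set were passed over, so these neighbours need not be adjacent. Of them 4 were measured, and none of these 4 was lower by 1.5-fold. TM2D2, on 1 side of ADAM9, read 6.81 on the anti-miR array, against 6.14 on the control array, which is 1.60-fold higher (0.67 ± 0.08, SD over 3 probe sets). Relative to the median gene, TM2D2 fell short of 1.5-fold. ADAM32, on the other side of ADAM9, had 1 dim probe set with a difference of 0.30. MINDY2, on 1 side of ADAM10, differed by -0.29 ± 0.13 (SD over 2 probe sets). AQP9, on the other side of ADAM10, was below the median at all 3 probe sets. IAH1 and YWHAQ, on either side of ADAM17, differed by 0.09 (1 probe set) and -0.16 ± 0.01 (SD over 2 probe sets).

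**Figure D4:**
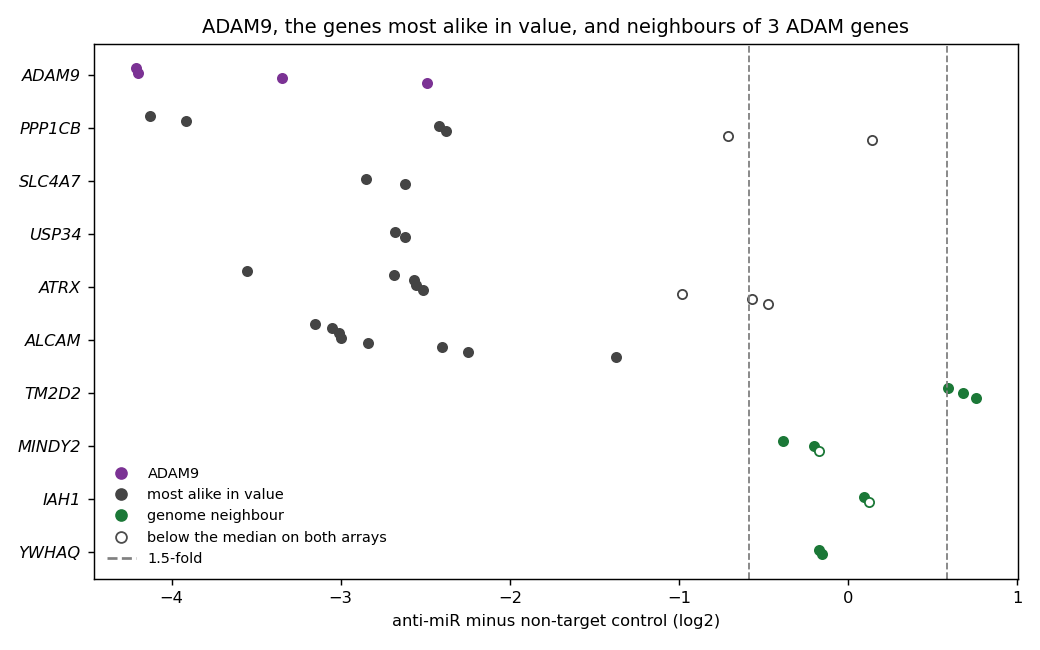
Differences (anti-miR minus non-target control, log2) of every probe set of ADAM9, of the 5 genes nearest to it in value and of the measured protein-coding neighbours of ADAM9, ADAM10 and ADAM17. The 3 probe sets of TM2D2 lie to the right of the upper 1.5-fold line, and those of MINDY2, IAH1 and YWHAQ lie between the lines.

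Promoters of ADAM10 and ADAM17 are shown because both were called lower at 1.5-fold, although each call was lost under a setting given above. ADAM9 and ADAM28 had no promoter entry, so the member with the largest decrease is not shown. A shared regulation was not tested. Each window is the 250 bases before the RefSeq gene start in GRCh38.p14, on the minus strand, at chr15:58749708-58749957 for ADAM10 and chr2:9555831-9556080 for ADAM17. Capitals mark the GC box, GGGCGG or its reverse complement CCGCCC.
ADAM10: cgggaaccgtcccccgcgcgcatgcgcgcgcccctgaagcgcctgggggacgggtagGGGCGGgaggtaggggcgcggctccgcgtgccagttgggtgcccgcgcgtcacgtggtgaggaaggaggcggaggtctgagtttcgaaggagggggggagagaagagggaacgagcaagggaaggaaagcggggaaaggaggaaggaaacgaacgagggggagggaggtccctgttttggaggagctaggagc
ADAM17: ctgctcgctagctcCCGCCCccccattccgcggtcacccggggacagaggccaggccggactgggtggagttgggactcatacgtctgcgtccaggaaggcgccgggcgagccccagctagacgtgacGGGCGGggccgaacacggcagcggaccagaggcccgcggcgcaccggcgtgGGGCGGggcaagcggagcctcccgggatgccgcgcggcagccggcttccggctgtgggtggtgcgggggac
The GC box occurred 1 time in the ADAM10 window and 3 times in the ADAM17 window, which were 68.4% and 75.6% G or C. It occurred in 42.6% of 35116 promoter windows of this length, and in 7 of the 8 members with an entry in the table, among them ADAM15 (6 times), whose gene value differed by -0.18. The median window was 58% G or C, and the 8 members ran from 65.6% (ADAM22) to 79.6% (ADAM15). Since the motif holds only G and C, 7 of 8 is not read as a trait of the family. The letters are a description of the windows and show no binding.

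Genes that act with the sheddases were read from 10 lists of 147 genes, of which 93 were measured. Of the 93, 25 were lower by at least 1.5-fold and 4 higher, which is 26.9% and 4.3%, beside 14.2% and 8.23% of all genes. With no filter 19 of 139 were lower and 4 higher, beside 7.37% and 4.4% of all genes. The lists were chosen with earlier results of these data known, so nothing is read from these shares. Their median difference was -0.07, beside 0.13 over all genes.

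Among the other ADAM genes, 2 of 11 listed were measured, and neither was past 1.5-fold. ADAM33 differed by 0.30 and ADAM11 by 0.16 (1 probe set each). Of 24 genes of the secreted ADAMTS group, 7 were measured, with 1 lower, 1 higher and a median of 0.34. ADAMTS12 was 1.61-fold lower (-0.69, 1 probe set), but differed by -0.41 with dim probe sets averaged in, short of the threshold. ADAMTS1, which cleaves proteoglycans, was 1.54-fold higher (0.62 ± 0.06, SD over 2 probe sets) and 0.49 relative to the median gene, short of the threshold. ADAMTSL2 differed by 0.38 and ADAMTS15 by 0.36.

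Convertases remove the prodomain of many ADAM enzymes and so activate them. FURIN, the best known of them, differed by 0.11 and PCSK7 by 0.33 (1 probe set each). MBTPS1, the site-1 protease, was 1.72-fold lower (-0.78, 1 probe set), but differed by -0.34 with dim probe sets averaged in, short of the threshold. It was the 1 lower gene of 3 measured and 7 listed, and the list median was 0.11.

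Trafficking partners bring the enzymes to the cell surface, iRhoms for ADAM17 and tetraspanins of the TspanC8 group for ADAM10. Of 8 measured genes 2 were lower and 0 higher, with a median of 0.09. Both lower genes were tetraspanins, as were most of the measured genes of the list. TSPAN5 read 3.97 on the anti-miR array, against 6.16 on the control array (-2.19 ± 0.84, SD over 2 probe sets), 4.55-fold lower. Both TSPAN5 probe sets were retained through the control array alone. TSPAN14 was 1.78-fold lower (-0.83 ± 0.65, SD over 4 probe sets), with probe sets from -1.43 to -0.03. TSPAN33 and TSPAN10 each differed by 0.30, and the measured tetraspanins not named here were also within 1.5-fold.

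Tissue inhibitors of metalloproteases bind and block the catalytic domain, and TIMP3 is the one that inhibits ADAM17. All 5 listed inhibitors were measured, with 1 lower, 0 higher and a median of -0.37. TIMP3 read 6.97 on the anti-miR array, against 7.34 on the control array (-0.37 ± 0.04, SD over 3 probe sets), within 1.5-fold. TIMP4 was 1.53-fold lower (-0.61, 1 probe set), and its probe set was retained through the control array alone. TIMP2 differed by -0.41 with probe sets at -1.02 and 0.20, and TIMP1 by 0.25 ± 0.06 (SD over 3 probe sets).

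Cytoplasmic tail partners are SH3 and PDZ proteins and other adaptors that bind the inner end of ADAM proteins. Of 11 measured, 4 were lower and 0 higher, with a median of -0.05. SNX9, a sorting nexin that binds the ADAM9 tail, read 7.15 on the anti-miR array, against 8.14 on the control array (-0.997 ± 0.09, SD over 2 probe sets). SH3D19 was 4.93-fold lower (-2.30, 1 probe set), but differed by -1.34 with dim probe sets averaged in. Its retained probe set passed the filter through the control array alone. The scaffold DLG1 was 2.82-fold lower (-1.50 ± 0.32, SD over 7 probe sets), and the phosphatase PTPN3, which binds ADAM17, 1.75-fold lower (-0.81 ± 0.48, SD over 5 probe sets).

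EGF-like ligands are made as membrane precursors that sheddases release. Of 4 measured, 1 was lower and 0 higher, with a median of -0.41. EREG was 1.61-fold lower (-0.69 ± 0.43, SD over 2 probe sets), but differed by -0.37 with dim probe sets averaged in, short of the threshold. TGFA differed by -0.43 ± 0.36 (SD over 3 probe sets). NRG1 differed by -0.39 (1 probe set). HBEGF read 7.42 on the anti-miR array, against 7.44 on the control array, and differed by -0.02 ± 0.06 (SD over 2 probe sets).

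Other shed proteins formed the longest list. Of 35 measured, 11 were lower and 3 higher, with a median of -0.14. ALCAM, an adhesion molecule released by ADAM17, was 6.21-fold lower (-2.63 ± 0.60, SD over 8 probe sets). The receptor phosphatase PTPRK differed by -2.22 ± 0.16 (SD over 3 probe sets), 4.67-fold lower, and by -1.61 with dim probe sets averaged in. AXL, a receptor kinase, differed by -1.52 with probe sets at -2.86 and -0.18. The other lower genes, named after their values were seen, included FGFR2 (-1.13), CD44 (-1.01), DSG2 (-0.94), MET (-0.92) and CDH2 (-0.82). NRP1 (-0.76), APP (-0.64) and IL6R (-0.63) completed the lower genes. With dim probe sets averaged in, FGFR2 (-0.45), NRP1 (-0.18) and IL6R (-0.32) fell short of the threshold. The 3 higher genes were NECTIN4, an adhesion molecule, and the stress ligands MICA (1.58-fold) and MICB (1.55-fold), the last pair named after their values were seen. Relative to the median gene, MICA and MICB fell short of 1.5-fold. NECTIN4 read 5.56 on the anti-miR array, against 4.05 on the control array, at the 1 of its 3 probe sets that was retained. Both readings lay within the nonspecific range, so its 2.85-fold difference is not an exact size. The probe set was retained through the anti-miR array alone, and NECTIN4 differed by 0.64 with dim probe sets averaged in.

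Other sheddases and gamma-secretase, the complex that cuts the stubs sheddases leave behind, had 1 lower gene of 9 measured, 0 higher and a median of 0.29. APH1A, a gamma-secretase subunit, was 2.99-fold lower (-1.58 ± 0.39, SD over 7 probe sets). NCSTN, another subunit, differed by 0.35 ± 0.02 (SD over 3 probe sets), RHBDL1 by 0.46 and BACE1 by 0.32.

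Integrins are the receptors that ADAM disintegrin domains bind. Of 9 measured, 3 were lower and 0 higher, with a median of -0.25. ITGA6 read 7.07 on the anti-miR array, against 8.86 on the control array (-1.79 ± 0.22, SD over 3 probe sets), 3.46-fold lower. ITGAV was 5.13-fold lower (-2.36 ± 0.08, SD over 2 probe sets), but differed by -1.28 with dim probe sets averaged in. ITGA2 was 1.59-fold lower (-0.67 ± 0.03, SD over 2 probe sets). ITGA3 differed by -0.41 ± 0.25 (SD over 3 probe sets). Of the 25 lower genes over all lists, 15 had no retained probe set above the highest nonspecific control on the anti-miR array, and 9 of these had none on the control array either. The 9 were ADAMTS12, MBTPS1, TSPAN5, TIMP4, SH3D19, PTPN3, EREG, IL6R and NRP1. DLG1, AXL, PTPRK, FGFR2, APH1A and ITGAV exceeded it on the control array alone. The folds of these 15 genes are not exact sizes.

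**Figure D5:**
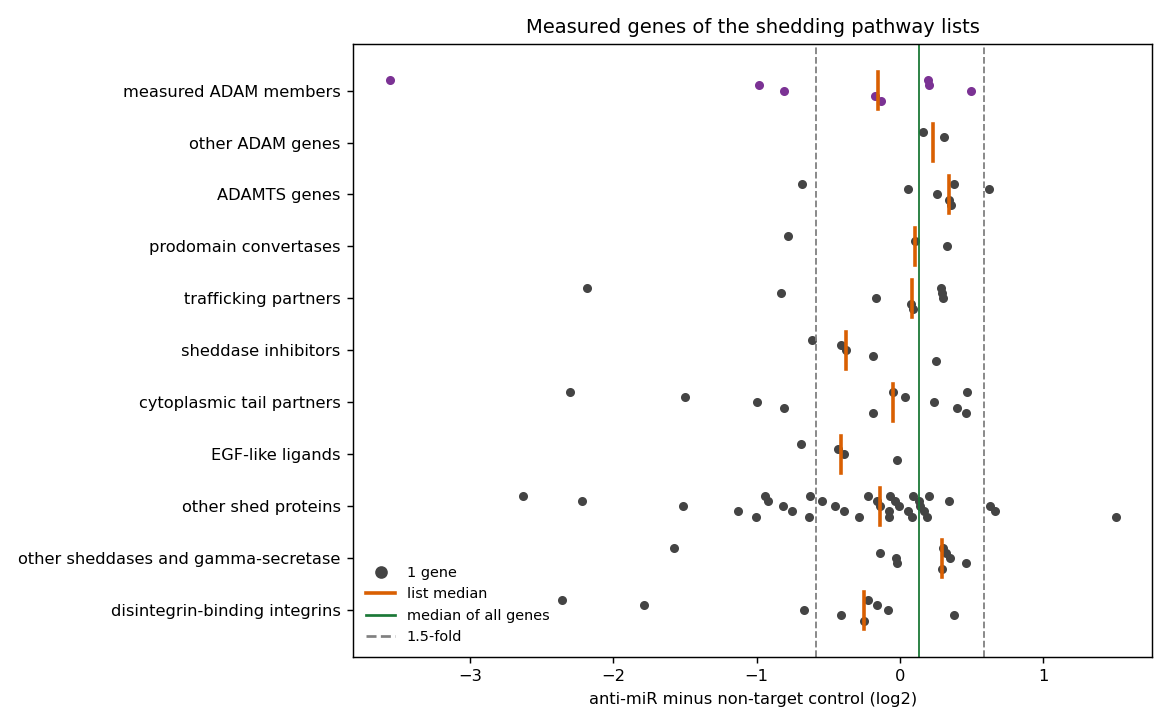
Differences (anti-miR minus non-target control, log2) of the measured genes of the ADAM members and 10 pathway lists, 1 point a gene, with each list's median in orange, the median of all genes in green and dashed lines at 1.5-fold. Of the 93 pathway genes, 25 lie at or left of the lower line and 4 at or right of the upper line.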

How the data were processed

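The table as deposited holds log2 expression values for each probe set. RMA is the one step that the submitters' processing notes name, and they record neither its version nor which arrays entered it. Per the labels' protocols, 10 ng of total RNA went into the biotin labelling. The table has no detection calls, and precision is limited by the number of arrays, 1 per group.

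Probe sets were named through the platform annotation and updated by Entrez ID through RefSeq's gene table of GRCh38.p14 (45172 of 45253 probe sets matched), which also gave neighbouring genes. Retention, gene values and the 1.5-fold threshold are as defined above, and no test was made. Alternatives were no filter or a stricter one, the median or brightest probe set as gene value, centring, plain _at probe sets and a 2-fold threshold. The calculation was tested on simulated data. The members and lists were chosen with earlier results of these data known. Named were all members, up to 4 genes of largest absolute difference per list (2 where none was past 1.5-fold), the genes ranked beside ADAM9, the 5 nearest to it in value, chromosomal neighbours with a probe set, GAPDH and ACTB. Beyond this rule, the remaining called genes of the other shed proteins were named. Promoters and the microRNA sequence are RefSeq's. Tools were Python 3.11.15, numpy 2.4.6, pandas 2.3.3 and statsmodels 0.14.6.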

Additional observations from a re-analysis of the deposited data

Results flagged for a closer look

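The poly-A spike control probe sets, which belong to no gene, read higher on the anti-miR array than on the control array by a mean of 0.32.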

How the results depend on the processing

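No paired analysis was possible because there was 1 array per group, and none could be left out. ADAM9 differed by -3.92 with the filter at the 75th percentile and by -4.21 with the probe set of highest level, against -3.56, and it had no plain _at probe set. At 2-fold, 1 ADAM member was lower. ADAM members numbered 3 with the 75th percentile filter and 4 with plain _at probe sets. Of all genes, against 1602 lower and 928 higher, plain _at probe sets gave 507 and 318 and a 2-fold threshold 787 and 139. Centring on the median gave 499 higher and on a lowess trend (fraction 0.3) 547. Of the pathway genes, against 25 lower and 4 higher, plain _at probe sets gave 9 and 0, where 26 genes were measured, and a 2-fold threshold 11 and 1, while either centring gave 1 higher. Plain _at probe sets measured fewer genes, and centring on the median subtracts 0.13 from every difference by construction. Of 47 member differences under the alternatives, 39 stayed within the pooled SD of 0.29 of the value reported, 8 moved further and 0 called ones changed sign. Of 67 list medians, 60 stayed within that SD and 7 moved further. With the 75th percentile filter the medians were -0.82 for EGF-like ligands (against -0.41), -0.49 for tail partners (against -0.05), -0.45 for other shed proteins (against -0.14) and -0.08 for other sheddases (against 0.29). With plain _at probe sets they were -0.53 for tail partners and -0.67 for integrins (against -0.25), and with no filter -0.03 for EGF-like ligands. The EGF-like median also passed 1.5-fold with the probe set of highest level (-0.61) and plain _at probe sets (-0.65), and that of trafficking partners (0.09) was -0.17 with plain _at probe sets. The cause was not tested. Depth here means signal over background.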
